A study of Mus musculus with 21 samples.

Results

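The transcripts of 10 genes of the early response to stimulation were followed in mouse epidermis: the Fos genes Fos, Fosb, Fosl1 and Fosl2, the Jun genes Jun, Junb and Jund, and Atf3, Maff and Egr1. They form a list given by name, with gene coordinates below on GRCm38, and all 10 were found by symbol among the 49315 gene identifiers of the count files. The series concerns AP-2α and AP-2β, DNA-binding factors whose genes are Tfap2a and Tfap2b, and measured total RNA of epidermis by RNA sequencing after depletion of ribosomal RNA. It holds 21 samples in 7 groups of 3, and in 13 files, all from mice of 3 weeks, every gene was listed at 0. The other 8 libraries held 11318181 to 17746284 counts.

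The comparison was between 3 libraries labelled K14CreTfap2afl/flTfap2bfl/fl at 6 months, here called cKO-labelled (double cKO in the plots), and 3 strain-specific control libraries of the same age, whose genotype is given as WT. K14Cre is a Cre recombinase transgene under the promoter of the keratin gene Krt14, which is active in basal keratinocytes, so the floxed Tfap2a and Tfap2b alleles are targeted in the epithelium and not in the immune cells and melanocytes of the epidermis. The labels do not say whether the controls carried the transgene, and they do not say how many animals gave each sample, so the p-values measure only the spread between these samples. A further 2 libraries with counts were labelled K14CreTfap2bfl/fl at 3 weeks (Tfap2b cKO). No control of that age held counts, so these 2 are given as values and entered no test. The targeted genes were still counted in every library. Tfap2a was at 165, 140.3 and 210.1 CPM (counts of the gene per 1000000 counts of the library) in control replicates 1 to 3 and at 229, 213 and 309 CPM in the cKO-labelled libraries, and Tfap2b was at 57.3, 86.6 and 71.03 against 53.8, 57.2 and 56.9 CPM. Tfap2b was thus lower in each cKO-labelled library than in each control, with a narrow gap, and Tfap2a was not lower. Neither change passed the test (log2 fold changes 0.47 and -0.43, edgeR adjusted p 0.118 and 0.111), although Tfap2a passed as higher without control replicate 3 (log2 fold change 0.72) and with no filter on low counts (0.57). These counts are per gene and not per exon, so they do not show whether the floxed parts of the alleles were removed. Every direction below is therefore that of the cKO-labelled libraries.

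Fos and Jun proteins carry a basic leucine zipper and bind DNA as dimers, together called AP-1. Fos proteins dimerise with Jun proteins, whereas Jun proteins can also pair with each other. Immediate early genes are transcribed within minutes of growth factor signals, wounding, heat or mechanical stress from factors already present in the cell, and their mRNAs are short-lived. In the epidermis AP-1 is known for roles in proliferation, differentiation, inflammation and wound repair, and the same genes are known to rise when tissue is dissected or dissociated, so that the handling of a sample can move them.

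Among the 10 members 9 were lower in the cKO-labelled libraries and none was higher (adjusted p under 0.05 in edgeR's quasi-likelihood test, adjusted over all 17755 genes tested). Of all genes tested, 8.59% were called lower, 6.26% higher and 14.9% in either direction. The median log2 fold change was -1.10 over the 10 members and -0.04 over all genes. For the same 9 members every cKO-labelled library lay below every control, which was so for 16.3% of all genes tested, while for 22.5% every cKO-labelled library lay above every control, and for no member. The exception was Fos, the gene of the list with the highest level per exonic length in both groups. The count of 9 fell to 4 when cKO-labelled replicate 1 or 2 was left out. The genes called over the whole table fell as well, to 668 of 21237 and 1043 of 21056 tested, from 2637 of 17755. Control replicates 1 and 2 had the most genes at 1 count or more (35794 and 39362, against 23454 to 25537 in the others). With both left out, the log2 fold changes of the members ran from -1.86 (Atf3) to -0.27 (Fos). All 10 fitted changes were below 0 in each of the 16 alternatives.

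**Figure D1:**
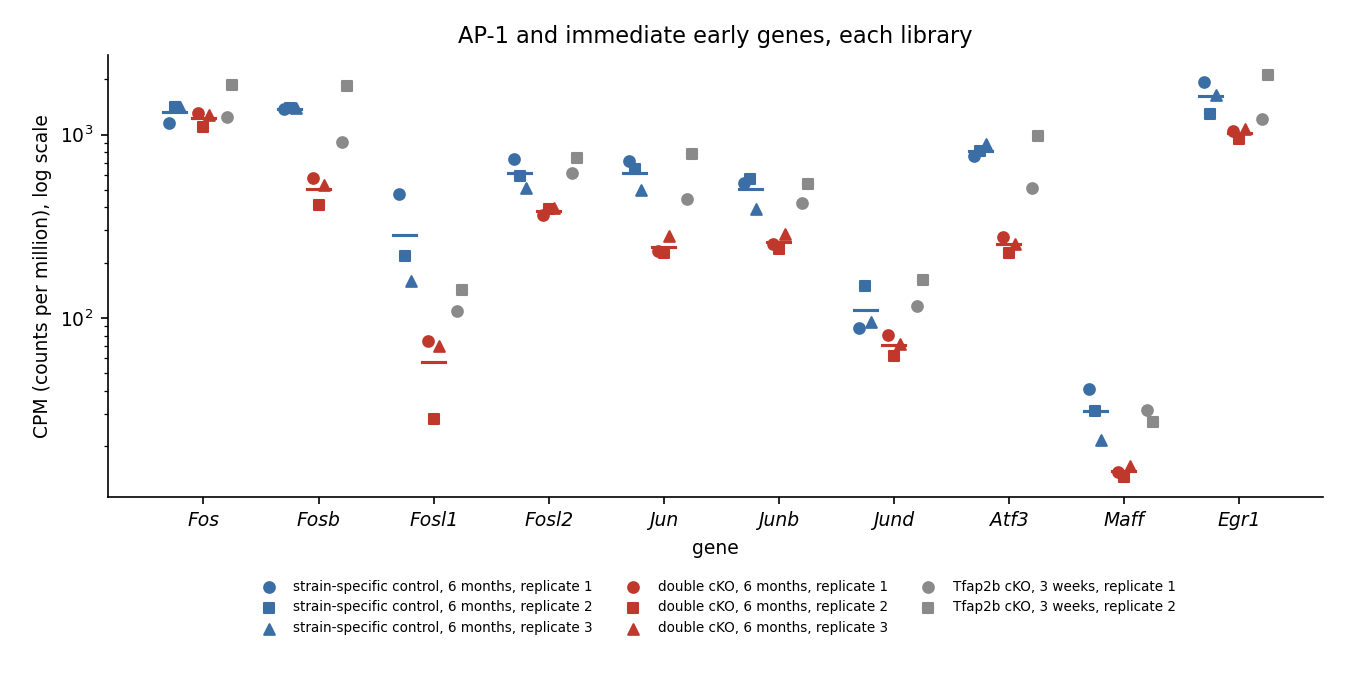
Level of each member in CPM on a log axis in the 8 libraries with counts; points are libraries, marker shapes are replicate numbers and short bars are means of the 6-month groups (n = 3). The red points of the cKO-labelled libraries lie below all blue control points for every gene but Fos.

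Upstream sequences are shown for Fos, which did not pass the test. They are also shown for Fosb, Jun, Junb and Atf3, which passed it in all 6 fits that left out 1 library. Whether these sequences bear on the changes was not tested. Each is the 250 bases before a RefSeq transcription start (GRCm38.p6), written 5′ to 3′ on the strand of the gene. They lie at chr12:85473640-85473889, plus strand for Fos, chr7:19310046-19310295, minus strand for Fosb, chr4:95052223-95052472, minus strand for Jun, chr8:84978749-84978998, minus strand for Junb and chr1:191183334-191183583, minus strand for Atf3. Sequences were taken from the RefSeq promoter table for 8 of the 10 members, and none was taken for Fosl1 and Egr1. This does not show that the table lacks an entry for either gene. Capitals mark matches, on either strand, to 7 motifs described after the sequences.
Fos: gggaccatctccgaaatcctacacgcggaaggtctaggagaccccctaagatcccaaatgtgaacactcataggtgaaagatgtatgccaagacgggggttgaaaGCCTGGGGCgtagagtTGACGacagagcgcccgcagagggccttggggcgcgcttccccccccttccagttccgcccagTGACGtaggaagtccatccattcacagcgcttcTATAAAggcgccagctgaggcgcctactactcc
Fosb: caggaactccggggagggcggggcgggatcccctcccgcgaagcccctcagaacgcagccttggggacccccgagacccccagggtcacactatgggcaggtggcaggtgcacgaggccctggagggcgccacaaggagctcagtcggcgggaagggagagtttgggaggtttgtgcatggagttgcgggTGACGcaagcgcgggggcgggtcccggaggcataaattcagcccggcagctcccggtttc
Jun: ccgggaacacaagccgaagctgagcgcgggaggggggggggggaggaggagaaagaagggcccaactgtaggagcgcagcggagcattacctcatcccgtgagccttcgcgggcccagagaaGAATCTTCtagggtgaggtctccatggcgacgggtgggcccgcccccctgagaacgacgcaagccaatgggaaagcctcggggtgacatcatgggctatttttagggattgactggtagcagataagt
Junb: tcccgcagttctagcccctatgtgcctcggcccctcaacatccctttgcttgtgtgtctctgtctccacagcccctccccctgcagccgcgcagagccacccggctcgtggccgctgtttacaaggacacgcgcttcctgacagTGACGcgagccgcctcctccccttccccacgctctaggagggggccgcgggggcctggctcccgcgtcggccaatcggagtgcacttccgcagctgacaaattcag
Atf3: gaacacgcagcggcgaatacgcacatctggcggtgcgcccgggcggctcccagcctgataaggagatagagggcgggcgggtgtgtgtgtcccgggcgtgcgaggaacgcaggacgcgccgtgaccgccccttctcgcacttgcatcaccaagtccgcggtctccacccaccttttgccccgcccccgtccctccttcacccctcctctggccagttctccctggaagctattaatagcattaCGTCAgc

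The motifs searched were the AP-1 site TGACTCA, the cAMP response element TGACGTCA and its core TGACG (each match to the longer element also matches the core), the AP-2 site GCCNNNGGC, the CArG box bound by serum response factor, the heat shock unit GAANNTTC and the TATA box TATAAA. Positions count backwards from the start site, whose preceding base is -1. The Fos sequence held the AP-2 motif at -145 to -137, the cAMP element core at -129 to -125 and at -66 to -62, and the TATA motif at -33 to -28. The core also stood at -60 to -56 in Fosb, at -106 to -102 in Junb and at -7 to -3 in Atf3. Jun held the heat shock motif at -128 to -121. Among all 32851 promoters of the table, 13.7% held the AP-2 motif in these 250 bases, 17.8% the core TGACG, 6.69% the heat shock motif, 12.4% the TATA motif, 4.46% the AP-1 site, 1.55% the full cAMP element and 1.47% the CArG box. No match to the AP-1 site, the full cAMP element or the CArG box stood in the 5 sequences shown, which says only that those letters are not in these windows. A match is a description and not a bound site. The core TGACG was added to the search after the sequences had been seen.

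Fos (ENSMUSG00000021250, chr12:85473890-85477273, plus strand), the founding gene of the family, held 1154, 1414 and 1419.7 CPM in control replicates 1 to 3, against 1309, 1093 and 1279 CPM in the cKO-labelled libraries. The groups overlapped, and the lowest control lay below 2 of the 3 libraries of the other group. Its log2 fold change was -0.19 (SE 0.14, with an edgeR adjusted p of 0.385), between -0.27 and -0.06 over the alternatives, and it passed the threshold in none of them. Fosb (ENSMUSG00000003545, chr7:19302696-19310051, minus strand) encodes a close relative of the Fos protein. It held 1372, 1398 and 1389 CPM in the controls, close to each other, and 579.8, 410.0 and 529 CPM in the cKO-labelled libraries, so the groups lay far apart. It fell by 1.53 on the log2 scale (SE 0.15, with an edgeR adjusted p of 0.000614), a level 2.89-fold lower.

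Fosl1 and Fosl2 encode Fra-1 and Fra-2, Fos-related proteins that lack the strong activation domain of Fos and whose transcripts come later and last longer after stimulation. Fosl1 (ENSMUSG00000024912, chr19:5447703-5455945, plus strand) held 473, 218 and 158 CPM across the controls against 74.7, 27.9 and 70.5 CPM in the cKO-labelled libraries. Control replicate 1 stood above the other 2 controls, and cKO-labelled replicate 2 below the other 2 of its group. The fall of Fosl1 was the largest of the list, 2.37 on the log2 scale, but also had the widest SE (0.55, with an edgeR adjusted p of 0.0391). It passed the threshold without control replicate 3 and in no other fit that left out 1 library, with log2 fold changes of -1.77 and -2.53 without control replicates 1 and 2 and of -2.54, -2.00 and -2.51 without each cKO-labelled library, and it was at -1.51 with control replicates 1 and 2 both left out. Fosl2 (ENSMUSG00000029135, chr5:32135801-32157842, plus strand) held 734, 596 and 511 CPM across the controls against 366, 393 and 395 CPM in the cKO-labelled libraries, with no overlap. Its log2 fold change was -0.75 (SE 0.16, with an edgeR adjusted p of 0.0151), and it no longer passed without cKO-labelled replicate 1 (-0.66) or 2 (-0.73).

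The Fos genes differed in their falls, and the make-up of the family shifted towards Fos. As a share of the summed CPM per exonic kb of the 4 genes, Fos made up 46.1, 59.3 and 62.1% in the controls and 76.1, 79.1 and 76.5% in the cKO-labelled libraries. Fosb made up 20.7, 22.1 and 22.9% against 12.7, 11.2 and 11.9%, and Fosl1 26.1, 12.6 and 9.54% against 5.99, 2.78 and 5.81%. The share of Fosl2 overlapped between groups, from 5.43 to 7.13% and from 5.17 to 6.91%. The summed level of the family was 1016 ± 46.2 CPM per exonic kb in the controls and 676 ± 77.8 in the cKO-labelled libraries (SD, n = 3 each).

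**Figure D2:**
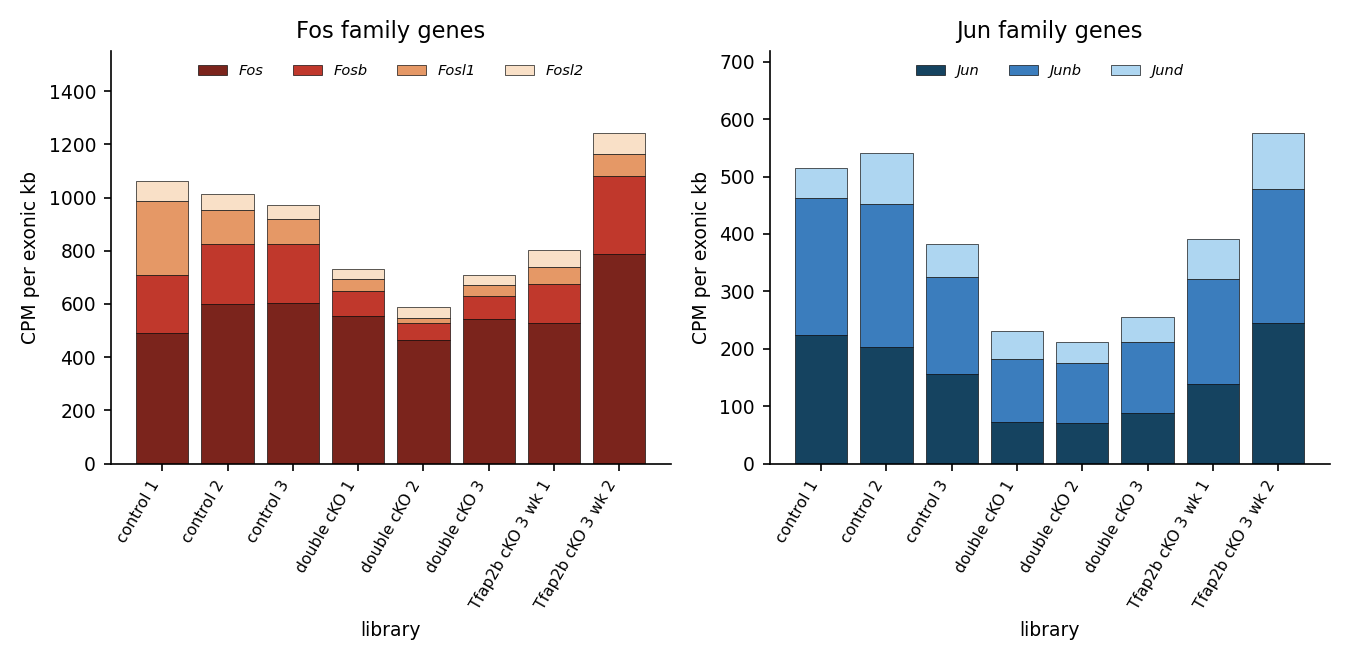
Stacked levels of the Fos genes (left) and Jun genes (right) in CPM per exonic kb, 1 bar per library. The heights of the Fos segment overlap between the 6-month groups, while Fosb, Fosl1, Fosl2 and all 3 Jun genes have shorter segments in the cKO-labelled libraries.

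Set against each other member within a library, Fos was relatively higher in the cKO-labelled libraries for all 9 of them. The ratio of Fos to Fosb CPM was 0.841, 1.01 and 1.02 in the controls and 2.26, 2.67 and 2.42 in the cKO-labelled libraries, so the CPM of the pair were nearly equal in the controls and apart in the other group. Per exonic kb, the scale on which levels of different genes can be compared, Fos was above Fosb in both groups, at 565 against 222 in the controls and at 522 against 81.1 in the cKO-labelled libraries (means, n = 3 each). The log2 difference in this ratio was 1.36, and over the 9 ratios the differences ran from 0.48 (Jund) to 2.15 (Fosl1). None of the 9 ratios overlapped between groups. That largely restates the levels above, since the same 9 members lay apart between the groups and Fos did not. How often the ratio of Fos to any other gene lay apart was not counted. No test is given for these ratios: they share Fos, which was singled out by the fits above, and an exact permutation test of 3 against 3 libraries cannot go below p = 0.1.

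**Figure D3:**
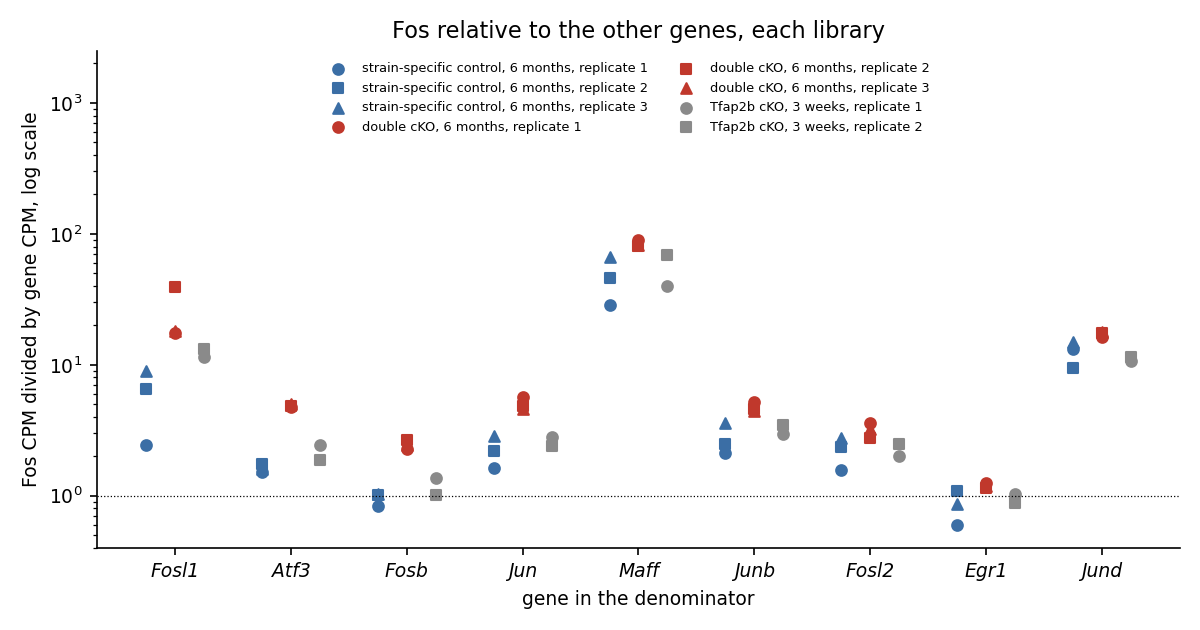
Fos CPM divided by the CPM of each other member, on a log axis, 1 point per library. For every gene the 3 red points of the cKO-labelled libraries lie above the 3 blue control points, most widely for Fosl1, Atf3 and Fosb.

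All 3 Jun genes were lower. Jun (ENSMUSG00000052684, chr4:95049034-95052222, minus strand), the partner that gave AP-1 much of its early description, held 714, 648 and 495 CPM across the controls against 230.2, 226 and 278 CPM in the cKO-labelled libraries. The highest of the second group was well under the lowest control, for a log2 fold change of -1.42 (SE 0.17, with an edgeR adjusted p of 0.00147). Junb (ENSMUSG00000052837, chr8:84974484-84978718, minus strand), whose product often opposes Jun in keratinocyte growth, held 547, 572 and 392 against 253, 238 and 286 CPM. The groups did not overlap, and it fell by 1.03 on the log2 scale (SE 0.17, with an edgeR adjusted p of 0.00589). Junb overlaps Prdx2 on the other strand, and because the strand setting of the counting is not given in the sources used here, reads in the shared stretch cannot be told apart. Jund (ENSMUSG00000071076, chr8:70698949-70700616, plus strand), the Jun gene that is expressed most steadily in resting cells, held 87.8, 149 and 94.5 CPM across the controls against 80.3, 62.2 and 71.8 CPM in the cKO-labelled libraries. The gap between the groups was small, and its log2 fold change of -0.70 (SE 0.21, with an edgeR adjusted p of 0.0493) was just past the threshold. Jund no longer passed without control replicate 2, which stood above the other controls (-0.42), without any 1 of the cKO-labelled libraries (-0.74, -0.57 and -0.68), when scaled by library totals (-0.64), under limma-voom (-0.66) or with all 8 libraries in one fit (-0.70).

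By length, Jun and Junb made up most of the Jun family in every library. The Jun share was 43.6, 37.6 and 40.6% in the controls and 31.4, 33.4 and 34.2% in the cKO-labelled libraries, with no overlap, and the Junb share 46.2, 45.9 and 44.5% against 47.7, 48.9 and 48.9%. The summed level of the 3 genes was 479 ± 85.0 CPM per exonic kb in the controls and 232 ± 21.5 in the cKO-labelled libraries (SD, n = 3 each).

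Atf3 (ENSMUSG00000026628, chr1:191170296-191218039, minus strand), which encodes a stress-induced leucine zipper repressor that can pair with Jun proteins, held 761, 811 and 883 CPM across the controls against 276, 227 and 254 CPM in the cKO-labelled libraries. The controls were close to each other and all were above the other group. The log2 change came to -1.77 (SE 0.13), a level 3.42-fold lower with the smallest edgeR adjusted p of the list, 0.000156. Maff (ENSMUSG00000042622, chr15:79347541-79359072, plus strand), a small Maf protein gene whose product binds DNA but has no activation domain, was the scarcest member, with 199 to 489 counts per library at 6 months. It held 40.6, 30.9 and 21.5 CPM across the controls against 14.5, 13.6 and 15.6 CPM in the cKO-labelled libraries, and it fell by 1.16 on the log2 scale (SE 0.25, with an edgeR adjusted p of 0.0151). Maff no longer passed without control replicate 2 (-1.16) or without cKO-labelled replicate 1 (-1.10) or 2 (-1.07). Egr1 (ENSMUSG00000038418, chr18:34859823-34864984, plus strand), a zinc finger factor gene induced through serum response factor, held 1946, 1299 and 1637 CPM across the controls against 1051, 949 and 1070.3 CPM in the cKO-labelled libraries. The controls were spread but all higher, for a log2 fold change of -0.75 (SE 0.17, with an edgeR adjusted p of 0.0189). It no longer passed without control replicate 1 (-0.59), without any 1 of the cKO-labelled libraries (-0.71, -0.66 and -0.75) or with all 8 libraries in one fit (-0.75).

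**Figure D4:**
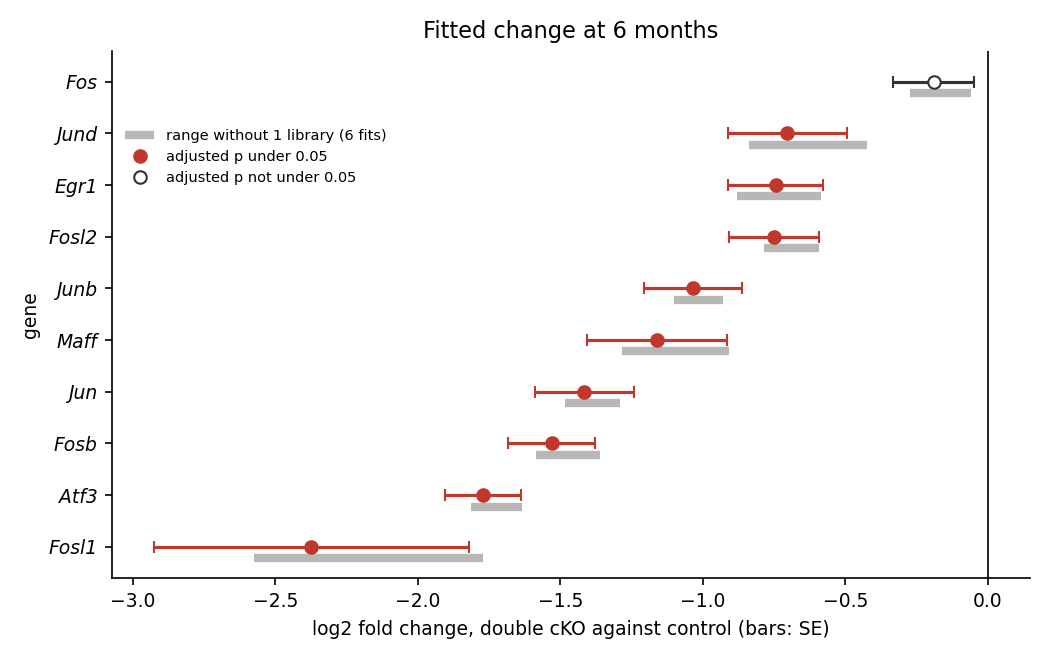
Log2 fold change of each member at 6 months, cKO-labelled libraries against controls (points, with SE as bars), and the range of the same value over 6 fits that each left out 1 library (grey). Fos is the open point nearest 0, and Fosl1 has the lowest value, -2.37, and the widest error.

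Several of these transcripts were abundant. Ranked by mean CPM per exonic kb among all genes with a count in the group, Fos was at place 43 of 42077 in the controls and at place 44 of 28570 in the cKO-labelled libraries. Atf3 went from place 60 to 233, Fosb from 131 to 343, Jun from 147 to 372 and Fosl1 from 170 to 1168. In the controls the order by level per exonic length was Fos, Atf3, Egr1, Fosb, Junb, Jun, Fosl1, Jund, Fosl2 and Maff. The libraries of neighbours overlapped in that order for Atf3 and Egr1, for each step from Fosb to Fosl1 and for Jund and Fosl2. In the cKO-labelled libraries the order was Fos, Egr1, Atf3, Junb, Fosb, Jun, Jund, Fosl2, Fosl1 and Maff, with overlap between Atf3 and Junb, Fosb and Jun, Jund and Fosl2, and Fosl2 and Fosl1. Within that group the library of replicate 2 was the lowest in CPM for 9 of the 10 members. How often it was the lowest over all genes was not counted.

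The libraries labelled Tfap2b cKO at 3 weeks held high levels of most members. Fos was at 1246 and 1853 CPM in replicates 1 and 2, Fosb at 912 and 1839, Egr1 at 1211 and 2106, Atf3 at 508 and 987, and Jun at 443 and 779.7. Replicate 2 was the higher of the pair for 9 members, Maff being the exception at 31.4 and 26.9 CPM. Both libraries were above all 3 cKO-labelled libraries for 9 members, all but Fos. Their range overlapped that of the 6-month controls for 9 members, all but Fosl1 (109 and 141 CPM). How often each of these orders held over all genes was not counted, so these counts do not set the members apart from other genes. Age, genotype and library differ at once between these groups and cannot be told apart. The summed level of 7 fibroblast markers was 2611 CPM in replicate 1 and 17.4 CPM in replicate 2. Sebaceous gland, endothelium and muscle marker sums were also higher in replicate 1 (8296, 398 and 49.0 against 557, 0.320 and 2.40 CPM). Basal and suprabasal keratinocyte marker sums were higher in replicate 2 (13186 and 14141 against 11014 and 12083 CPM). The part of these differences in the member values was not tested.

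Other immediate early and early response genes were lower as well. Of 35 such genes 34 were tested, 18 passed as lower and none as higher, with a median log2 fold change of -1.01. The nuclear receptor genes of the Nr4a family, which need no ligand and respond to many stimuli, were among those that fell. Nr4a3 held 295, 218 and 198 CPM across the controls against 25.6, 25.6 and 33.2 CPM in the cKO-labelled libraries, an 8.83-fold lower level (log2 fold change -3.14, SE 0.20, edgeR adjusted p 0.00011). Nr4a1 went from 1192, 1128 and 1064 CPM to 246, 228 and 308 CPM (log2 fold change -2.19), and Nr4a2 from 69.5 ± 30.7 to 10.95 ± 3.69 CPM (log2 fold change -2.72, SD with n = 3 each). For all 3 the groups lay apart, and all 3 passed in each fit that left out 1 library. With control replicates 1 and 2 both left out, Nr4a2 no longer passed (-1.80).

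Other genes of the list with known roles were as follows. Dusp1, a phosphatase that inactivates MAP kinases, held 936 ± 297 CPM across the controls against 418 ± 18.7 CPM in the cKO-labelled libraries (log2 fold change -1.24, edgeR adjusted p 0.00939). Zfp36, which promotes decay of AU-rich mRNAs, went from 803 ± 181 to 417 ± 61.3 CPM (log2 fold change -1.03), and Btg2, an antiproliferative gene, from 709 ± 176 to 202 ± 36.4 CPM (log2 fold change -1.89; SD, n = 3 each). Gadd45b, a stress sensor gene, fell by 1.96 on the log2 scale. Ier2 fell by 0.75 but no longer passed without control replicates 1 (-0.66) or 2 (-0.67) or without cKO-labelled replicates 1 (-0.69) or 2 (-0.67). Dusp2 fell by 2.70 on 0 to 26 counts per 6-month library (-3.67 under DESeq2 and -3.84 under limma-voom) and passed without control replicate 3 but in no other fit that left out 1 library (-2.96 to -2.38 where it did not pass). Klf4, a differentiation factor gene, missed the threshold (log2 fold change -0.52, edgeR adjusted p 0.0505), but passed it without control replicate 3 (-0.53), under DESeq2 (-0.51) and limma-voom (-0.51), with a minimum of 10 counts in every library (-0.56) and with background subtracted (-0.59). The 3 genes with a fitted change above 0, Socs3 (0.04), Sgk1 (0.54) and Nfkbiz (0.37), did not pass either, though Nfkbiz did without control replicate 3 (0.55).

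**Figure D5:**
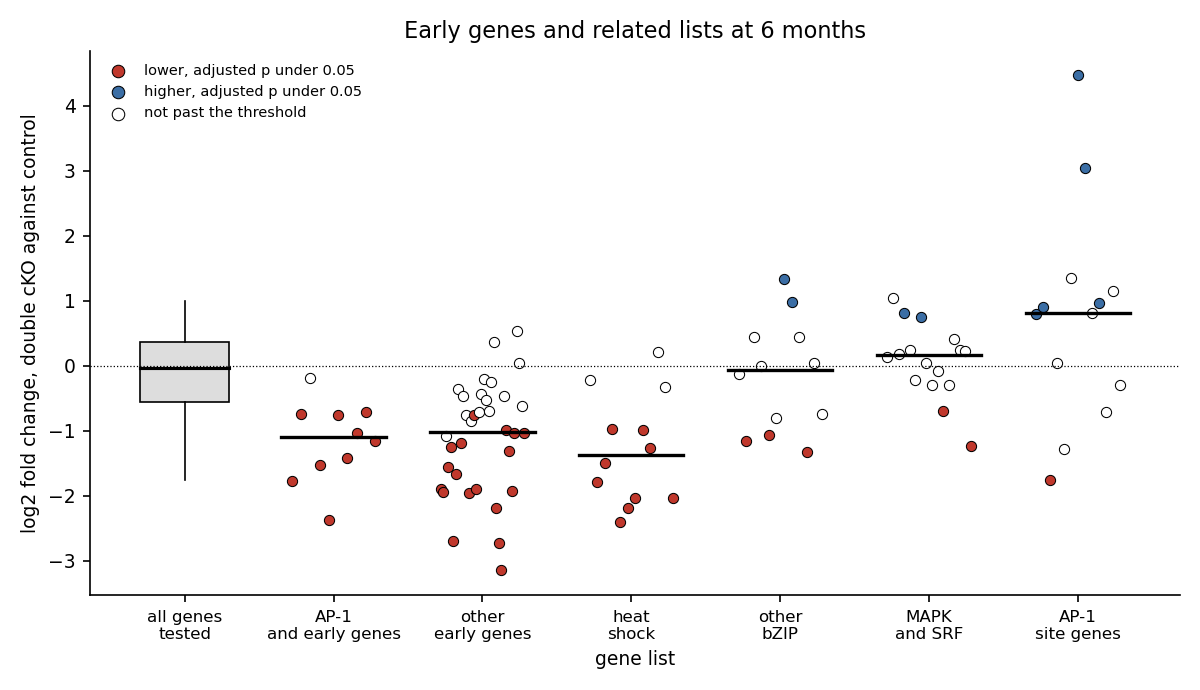
Log2 fold change of each tested gene in 6 lists, cKO-labelled libraries against controls, with list medians as bars and all 17755 genes tested as a box (quartiles and median, with lines to the 5th and 95th percentiles). The members, the other early genes and the heat shock genes have their medians at -1.10, -1.01 and -1.38, below the lower quartile of all genes, -0.55.

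Heat shock genes, which also respond to the handling of tissue, moved in the same direction. Of 12 genes 9 passed as lower and none as higher, with a median log2 fold change of -1.38, and the summed level of the 12 was 6784 to 9308 CPM across the controls against 2555 to 2828 CPM in the cKO-labelled libraries. Hspa1a and Hspa1b, near-identical genes for inducible Hsp70 that can share reads, were at 547, 478 and 543 against 124, 129 and 108 CPM and at 2072, 1724 and 2493 against 528, 608 and 482 CPM. Hsp90aa1 had the largest fall of the list, 2.40 on the log2 scale (SE 0.29, with an edgeR adjusted p of 0.0019), with control replicate 3, at 1454 CPM, above the other controls, and its log2 fold change was -3.00 when that was the sole control kept. Hsph1 and Dnaja1 fell by 2.03 and 1.78. Hspd1 (0.22), Hspe1 (-0.33) and Bag3 (-0.22) did not pass the threshold, though Hspd1 passed as higher without control replicate 3 (0.53). The part of sample handling in the lower early and heat shock genes was not tested.

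Among 15 other leucine zipper genes that can pair with Fos, Jun or small Maf proteins, 12 were tested, of which 3 passed as lower and 2 as higher (median log2 fold change -0.06). Maf, a differentiation factor gene of the epidermis, went against the members and rose from 118, 94.8 and 140.2 CPM to 305, 299 and 332 CPM (log2 fold change 1.33, SE 0.16, with an edgeR adjusted p of 0.00125). The small Maf gene Mafk, like Maff, fell, from 126, 103 and 106 to 45.8, 48.5 and 46.8 CPM (log2 fold change -1.32), whereas the third small Maf gene, Mafg, had a log2 fold change of 0.44 and did not pass, except without control replicate 3 (0.71). Atf4, the factor of the integrated stress response, fell by 1.15. Bach2 fell by 1.07, but passed neither without control replicate 2 nor without any 1 of the cKO-labelled libraries (-1.18 to -0.81).

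Genes upstream of the early response showed no common direction. Of 16 genes for MAP kinases, their kinases and serum response factor with its partners, 2 passed as higher and 2 as lower (median log2 fold change 0.17). Srf, which encodes the factor that binds CArG boxes and is itself an early gene, fell from 138, 92.2 and 104 CPM to 47.7, 47.04 and 55.6 CPM (log2 fold change -1.23, SE 0.18, edgeR adjusted p 0.00333). Mapk3, which encodes ERK1, fell by 0.69 but did not pass without any 1 of the cKO-labelled libraries (-0.55, -0.72 and -0.68). The kinase genes Map2k1 and Map2k7 rose by 0.81 and 0.75. Map2k1 no longer passed without cKO-labelled replicate 1 (0.89) or 3 (0.76), and Map2k7 passed without control replicate 3 (0.98) but in no other fit that left out 1 library (0.62 to 0.82).

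Genes with known AP-1 sites did not follow the members down. Of 14 such genes 13 were tested, 5 passed as higher and 1 as lower (median log2 fold change 0.81). Mmp13, a collagenase gene, was at 0.498, 0.884 and 0.1302 CPM in the controls, from 2 to 10 counts, and at 13.3, 13.4 and 16.3 CPM in the cKO-labelled libraries (log2 fold change 4.47, SE 0.50, edgeR adjusted p 0.000729). On so few control counts the size of the Mmp13 change varied with the method, to 5.09 under limma-voom, 5.64 with background subtracted and 5.76 with control replicates 1 and 2 both left out. Mmp3, the stromelysin gene, was at 1.58, 4.42 and 3.13 against 52.4, 21.6 and 8.45 CPM (log2 fold change 3.04, edgeR adjusted p 0.0272). Mmp3 no longer passed without any 1 control (2.75, 3.38 and 3.14), without cKO-labelled replicate 2 (3.21) or under limma-voom (2.78). Without cKO-labelled replicate 1, the highest for Mmp3, it passed with a smaller change of 2.23. Plau, Cd44 and Ccnd1 rose by 0.96, 0.91 and 0.80. Plau passed without control replicate 3 but in no other fit that left out 1 library (0.79 to 1.10), Cd44 did not pass without control replicates 1 (0.96) or 2 (0.87) or cKO-labelled replicates 1 (0.83) or 3 (0.81), and Ccnd1 did not without control replicate 2 (0.73) or cKO-labelled replicate 1 (0.87). Hmox1, the inducible heme oxygenase gene, fell by 1.76, and no longer passed without cKO-labelled replicate 1 (-1.48). Il6 was not tested at its low counts, and Ivl (0.05) and Lor (-1.27), which encode cornified envelope proteins, did not pass.

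The make-up of the samples also differed between the groups, and in bulk RNA fewer cells of a type and less RNA per cell cannot be told apart. Basal keratinocyte markers (8 genes) summed to 9383 to 11974 CPM across the controls against 17677 to 21052 CPM in the cKO-labelled libraries, stress keratin and related genes (7) to 465 to 723 against 3487 to 4593 CPM, and proliferation markers (6) to 134 to 222 against 342 to 469 CPM. For 7 of the basal markers every cKO-labelled library lay above every control (22.5% of all genes tested), and for 1 below (16.3%). Sums of sebaceous gland markers (6 genes) were lower in all cKO-labelled libraries, at 746 to 929.8 against 202 to 237 CPM. So were those of fibroblast markers (7), at 53.8 to 159 against 12.2 to 23.6 CPM, and of muscle markers (6), at 5.27 to 13.4 against 2.32 to 2.70 CPM. The muscle sums were low throughout, and only 2 of these 6 genes were tested. Control replicates 1 and 2 were at 13.4 and 11.1 CPM, and control replicate 3 at 5.27 CPM. Suprabasal keratinocyte, hair follicle, endothelium, melanocyte, T cell, Langerhans cell and macrophage, and neutrophil markers overlapped between the groups in their sums. Neutrophil markers, at 0.130 to 9.37 CPM across the controls against 0.477 to 2.39 CPM in the cKO-labelled libraries, were near 0 in both, and no listed marker was at 0 in all 8 libraries. The part of these cell types in the lower early genes was not tested.

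By likeness over the 8 libraries, measured as Pearson's r of log2(CPM + 0.5) among 11356 genes with a mean of at least 5 CPM, the genes nearest to Fosl1 were Slco4a1 (r = 0.982), Pmvk (0.982), Ndrg1 (0.981), Tmc7 (0.98) and Mex3a (0.976). Those nearest to Fos were Necap1 (r = 0.906), Secisbp2l (0.902), Tec (0.901), Tbc1d15 (0.898) and Gli3 (0.894). These values describe 8 libraries that share groups and depth, and carry no test.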

How the data were processed

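Total RNA from Trizol and column extraction was depleted of ribosomal RNA, per the labels' protocols, and sequenced as paired-end reads of 150 bp. The deposited values are whole-number counts per gene, not normalized. Trimmomatic 0.36, STAR 2.5.2b, featureCounts and Subread 1.5.2, and the builds GRCh38 and GRCm38, are named in the submitters' processing notes, with no role or order. The annotation, strand setting and treatment of multi-mapping reads are not given in the sources used here. Of the 49315 identifiers 48970 had a GENCODE M21 symbol.

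Samples were grouped by title. Counts at 6 months were tested with edgeR 4.0.16 in R 4.3.3 (filterByExpr, TMM, glmQLFit with robust = TRUE and prior count 2, glmQLFTest), adjusted by Benjamini-Hochberg over 17755 genes at a threshold of 0.05. Each SE was derived from the test, as the size of the log2 change fitted without the prior count divided by the square root of the F statistic. It is thus not an error estimated apart from the p-value. CPM uses library totals without TMM factors. Per exonic kb uses the length in the files. Counts were simulated for 17755 genes of this comparison, with 200 genes changed 4-fold. Of 185 changed genes tested 133 (71.9%) were called, and 10 calls (6.99%) were of unchanged genes. The simulation gave each unchanged gene 1 mean level in all libraries, without the higher background of control replicates 1 and 2. Every called member but Fosl1 changed less than 4-fold, so these rates need not hold for the members.

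Alternatives used limma 3.58.1, DESeq2 1.42.0 and the settings listed in the closing section. All 10 members, Tfap2a and Tfap2b were named. From each other list up to 5 rises and 5 falls were named, the largest past the threshold with groups apart, plus Ier2, Nr4a1, Dusp1, Zfp36, Btg2 and Klf4. The marker lists are given by their sums, and the basal list also by counts of genes. A gene that the rule names is not reported here. Other genes given were picked after their values were seen. The members and lists were chosen with earlier results of these data known. The files of 13 samples with all genes at 0 were left out.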

Additional observations from a re-analysis of the deposited data

Results flagged for a closer look

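The 2 libraries labelled Tfap2b cKO at 3 weeks, which entered no comparison, held all 10 members well above the 3 counts that a count of 0 allows (counting error only), with no control of that age to set beside them. The lower of the 2 libraries held 16166 counts of Fos, 11832 of Fosb, 1408 of Fosl1, 7992 of Fosl2, 5752 of Jun, 5466 of Junb, 1510 of Jund, 6593 of Atf3, 337 of Maff and 15711 of Egr1.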

How the results depend on the processing

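All 10 members kept a fitted change below 0 in the 16 alternatives. Fosb, Jun and Atf3 passed the threshold in all 16, and Junb in 15, missing it with control replicates 1 and 2 both left out (-0.65). That fit rests on 1 control library assumed to vary like the other group. It called 437 genes, 3 members and 5 of the other early genes. Without a filter on low counts 4809 genes were called, and Fosl1 missed the threshold (-2.24). Fits without 1 library called 668 to 7544 of 18108 to 21237 genes tested, fewest without cKO-labelled replicate 1 and most without control replicate 3. In the same fits 4 to 9 members, 13 to 25 other early genes and 7 to 9 heat shock genes were called. Subtracting the background seen in olfactory and vomeronasal receptor genes, at most 1.93% of a member's counts (Maff, control replicate 2), changed no member's call, nor did DESeq2, median-ratio scaling or a minimum of 10 counts in every library.

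With the replicate number as a block, 1729 genes were called, and Jund (-0.67), Bach2 (-1.09), Hmox1 (-1.69) and Mmp3 (2.69) no longer passed. The titles number the replicates but do not say that equal numbers belong together. Deviations from the group means correlated at 0.0136, -0.166 and -0.0644 for the same-numbered pairs, and not every sample was nearest to its own number. Such correlations between single libraries cannot exclude a pairing. At 6 months Dusp2 had at most 26 counts in a library and Mmp13 2 to 10 in the controls, and a minimum of 10 counts in every library left both out.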
